A study of Rattus norvegicus with 14 samples.

Results

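Expression of 10 genes of bile acid synthesis, conjugation and transport was followed in rat liver, in foci of a liver cancer model and in regenerating liver. They were chosen by name for their roles in this pathway: the synthesis enzymes Cyp7a1, Cyp8b1 and Cyp27a1, the conjugation enzymes Slc27a5 and Baat, the uptake carriers Slc10a1 and Slco1b2, the export pump Abcb11, and the nuclear receptors Nr1h4 and Nr0b2. Each of the 10 had exactly 1 probe set with a single gene symbol, among the 14497 genes tested and the 28826 probe sets of the array. The samples came from 12 male F344 rats, an inbred strain, in 4 groups of 3 animals. SF Rapamycin and SF Placebo rats went through the Solt-Farber protocol: diethylnitrosamine, a liver carcinogen, at 200 mg/kg on day 1, a 2.5 mg pellet releasing 2-acetylaminofluorene (AAF) for 14 days on day 14, and on day 21 partial hepatectomy plus a 21-day pellet of rapamycin (2.5 mg/kg/day) or of placebo. Their persistent lesions that stained for GSTP, the placental form of glutathione S-transferase, were captured after death on day 70, when the release time of the pellet had passed. AAF/PH rats carried the same kind of AAF pellet from day 1, had partial hepatectomy on day 7 and were killed on day 14, and the labels give oval cells as the feature of the captured tissue. Adult Liver rats were unmanipulated and are called normal liver here. Diethylnitrosamine was common to both foci groups, and AAF and hepatectomy to every group but normal liver. The ages of the animals are not given in the sources used here.

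Hepatocytes make bile acids from cholesterol, conjugate them with taurine or glycine, and pump them into bile, from which the gut returns them to the liver in portal blood. Uptake carriers on the sinusoidal side and the export pump on the canalicular side carry this circulation. The nuclear receptor FXR senses bile acids and induces SHP, a corepressor that lowers transcription of the synthesis enzymes, which closes a feedback loop.

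Each value is an array intensity on a linear scale, which has no fixed unit and does not compare one gene's level with another's. Sections had been fixed in formalin and embedded in paraffin, and the regions were cut out by laser, so each sample is bulk tissue: fewer cells of a type and less RNA per cell cannot be told apart. The median intensity over all probe sets lay between 19.84 and 25.37 on the 14 arrays. Rapamycin animal 3 was run on 3 arrays, a pair from the same RNA and one from a second laser capture, which were averaged into 1 animal. Its arrays stood apart, with log2 intensities spread less widely across genes: their interquartile range was 1.57 to 1.71, against 1.98 to 2.80 on the other arrays. The 10 genes differed by at most 0.31 log2 units between the arrays of the same RNA and by at most 0.62 over all 3 arrays, and animal 3 was the lowest rapamycin animal in 9 of the 10 genes, the exception being Cyp8b1. Differences of the 10 genes between rapamycin foci and normal liver are therefore given with and without it. The interquartile range also differed by group: 2.36 to 2.80 in normal liver, 1.98 to 2.26 in AAF/PH liver and 2.14 to 2.61 in placebo foci. Rapamycin animals 1 and 2 had 2.38 and 2.50. The part of these spreads in differences between groups was not tested. Gstp1, which encodes the protein used to choose the lesions and so is no finding, had intensities of 3827, 4363 and 1814 in rapamycin foci and 3743, 3748 and 4639 in placebo foci, against 183, 152 and 216 in AAF/PH liver and 114, 100.1 and 116 in normal liver.

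The labelled tissue was checked against marker genes. The summed intensity of 10 hepatocyte markers, among them Alb and Ttr, was 29756 to 42617 in rapamycin foci, 32030 to 38294 in placebo foci and 25146 to 28943 in AAF/PH liver, against 44426 to 48553 in normal liver. The 9 measured markers of cholangiocytes and oval cells summed to 1059 to 1639 in AAF/PH liver and 214 to 263 in normal liver. Their sum was 276 to 546 in rapamycin foci and 510 to 778 in placebo foci. Not every marker followed the sums. Afp had a geometric mean of 449.7 in AAF/PH liver and 49.3 in placebo foci, and Dmbt1 had 261 and 40.8. Krt19 had 82.8 in AAF/PH liver and 117 in placebo foci, and Epcam had 45.6 and 46.6. Hepatocyte markers were present in every group, including the group labelled oval cells.

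Promoter sequence of 3 of the genes is shown because their patterns differ: the uptake carriers Slc10a1 and Slco1b2 were lower in every treated group than in normal liver, Slc10a1 far lower in AAF/PH liver than in foci, while Nr0b2 was higher in foci. The sequences are RefSeq's, from the rat assembly GRCr8, 250 bases before to 50 after the gene start, 5′ to 3′ on the gene's strand. Capitals mark AGGTCA, the half-site that many nuclear receptors bind, on either strand. The positions are chr6:106357895-106358194 on the minus strand for Slc10a1, chr4:176282334-176282633 on the plus strand for Slco1b2 and chr5:151062910-151063209 on the plus strand for Nr0b2.
Slc10a1: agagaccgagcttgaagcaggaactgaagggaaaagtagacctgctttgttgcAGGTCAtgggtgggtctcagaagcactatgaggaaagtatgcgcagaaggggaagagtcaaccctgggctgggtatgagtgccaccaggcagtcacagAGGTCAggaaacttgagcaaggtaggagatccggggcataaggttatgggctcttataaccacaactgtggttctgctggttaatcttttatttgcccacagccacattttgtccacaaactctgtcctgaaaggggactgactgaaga
Slco1b2: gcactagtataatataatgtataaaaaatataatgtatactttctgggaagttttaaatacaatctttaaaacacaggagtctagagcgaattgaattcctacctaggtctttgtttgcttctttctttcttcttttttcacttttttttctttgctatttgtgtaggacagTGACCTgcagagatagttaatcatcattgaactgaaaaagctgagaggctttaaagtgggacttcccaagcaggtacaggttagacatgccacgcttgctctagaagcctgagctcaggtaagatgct
Nr0b2: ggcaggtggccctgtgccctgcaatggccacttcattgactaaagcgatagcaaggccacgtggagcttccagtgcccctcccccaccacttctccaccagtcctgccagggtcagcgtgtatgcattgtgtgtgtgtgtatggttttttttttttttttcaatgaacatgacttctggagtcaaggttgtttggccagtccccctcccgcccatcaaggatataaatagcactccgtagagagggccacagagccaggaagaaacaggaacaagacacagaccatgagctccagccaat
In Slc10a1, AGGTCA began 197 and 99 bases before the start. In Slco1b2, TGACCT, its reverse complement, began 78 bases before the start. The Nr0b2 window held no match to any motif searched. Promoters of 7 of the 10 genes were matched. AGGTCA stood in 3 of the 7 (Cyp27a1, Slc10a1 and Slco1b2) and in 16.2% of the 33469 rat promoters of the same length. TCAAGGTCA (an NR5A2 motif), CAAAGGTCA (an HNF4A motif) and GTCANTGAC (the core of the FXR inverted repeat) stood in 0 of the 7 and in 0.433%, 0.424% and 0.448% of all promoters. AGGTCA was added after the data were seen and can lie inside TCAAGGTCA and CAAAGGTCA. These matches describe the letters in the window and say nothing of binding.

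Most of the 10 genes were lower than in normal liver in both kinds of foci and in AAF/PH liver. Rises and falls are calls of limma's moderated test, made where the Benjamini-Hochberg adjusted p over all 14497 genes was below 0.05. In rapamycin foci 7 of the 10 genes fell and 1 rose, where 4.93% of all genes fell and 1.6% rose. In placebo foci 7 fell and 0 rose, where 5.38% of all genes fell and 2.84% rose. In AAF/PH liver 9 fell and 0 rose, where 12.5% of all genes fell and 7.54% rose. In normal liver the 10 genes had geometric means of 48.9 to 1256, above the medians of those arrays, 19.84 to 21.01. The shares over all genes include dimmer genes, in which a fall could hardly show. The median log2 difference from normal liver over the 10 genes was -1.23 in rapamycin foci, -1.63 in placebo foci and -1.98 in AAF/PH liver, against 0.07, 0.04 and 0.12 over all genes. In each of these comparisons the animals did not overlap in 9 of the 10 genes, all but Cyp7a1. Over all genes the groups did not overlap in 29.7% for rapamycin foci, 30.5% for placebo foci and 49.6% for AAF/PH liver. Without rapamycin animal 3, 6 of the 10 genes fell and 1 rose in rapamycin foci, where 6.68% of all genes were called in either direction, and Slc10a1 lost its call. The 8 calls in rapamycin foci fell to 4 without normal animal 1 or 3, and those over all genes to 224 and 284, against 947. These comparisons share the same 3 normal rats and are not independent of each other. The plot of intensities by animal shows all values.

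**Figure D1:**
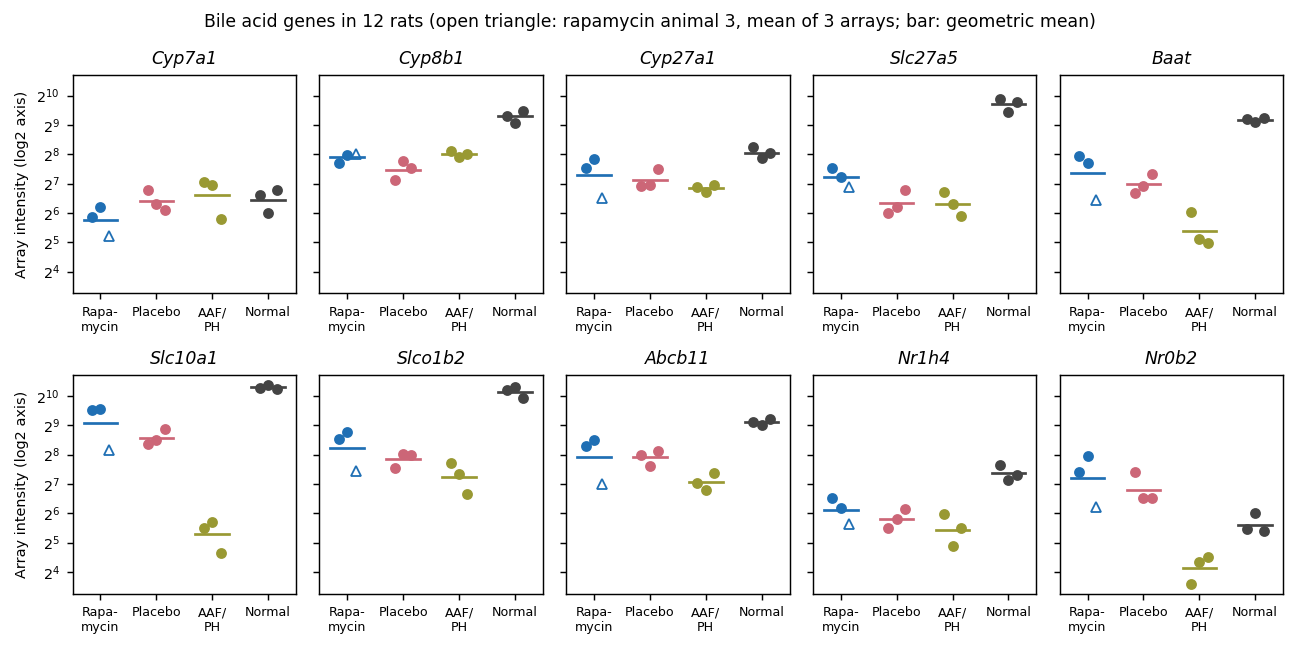
Array intensity (log2 axis) of the 10 bile acid genes in 12 rats, 1 point an animal, with a bar at each group's geometric mean; the open triangle is rapamycin animal 3, the mean of 3 arrays. Slc10a1 lay at 25.1 to 51.7 in AAF/PH liver and at 1201 to 1329 in normal liver, and Cyp7a1 overlapped between all groups.

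Among the synthesis enzymes, Cyp8b1 was lower in all 3 groups than in normal liver, Cyp27a1 was called lower in AAF/PH liver, and Cyp7a1 was called in no comparison. Cyp7a1, the rate-limiting enzyme of the classic pathway, had intensities of 58.5, 73.9 and 37.2 in rapamycin foci, 111, 79.8 and 69 in placebo foci and 134, 124 and 55.7 in AAF/PH liver, against 97.6, 63.4 and 109 in normal liver. The groups overlapped throughout. Its log2 difference from normal liver was -0.69 ± 0.34 (SE of the fit, 3 animals a group) in rapamycin foci, -0.04 in placebo foci and 0.15 in AAF/PH liver, with limma adjusted p of 0.208, 0.958 and 0.76. Leaving out rapamycin animal 3 gave -0.41 in rapamycin foci (adjusted p = 0.554). The plot of differences from normal liver gives the 95% intervals, which include 0 for Cyp7a1 in every group.

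Cyp8b1, the sterol hydroxylase that directs synthesis to cholic acid, had intensities of 208, 252 and 259.8 in rapamycin foci, 138, 217 and 184 in placebo foci and 279, 242 and 258 in AAF/PH liver, against 637, 532 and 717 in normal liver. Every animal of the 3 treated groups lay below every normal animal. The log2 difference was -1.39 ± 0.20 in rapamycin foci (limma adjusted p = 0.00123), -1.82 in placebo foci (adjusted p = 4.95e-05) and -1.27 in AAF/PH liver (adjusted p = 0.000404). Leaving out rapamycin animal 3 gave -1.45 in rapamycin foci (adjusted p = 0.000164). Cyp27a1, the mitochondrial sterol hydroxylase that starts side-chain oxidation and the alternative pathway, had 185, 229 and 91.7 in rapamycin foci, 121, 124 and 182 in placebo foci and 119, 106 and 123 in AAF/PH liver, against 300, 234 and 265 in normal liver. It fell in AAF/PH liver, with a log2 difference of -1.20 ± 0.28 (limma adjusted p = 0.00785). In rapamycin and placebo foci the differences of -0.75 and -0.92 did not pass (adjusted p = 0.118 and 0.0585), although the animals did not overlap. In rapamycin foci the difference was -0.37 without animal 3 (adjusted p = 0.376), and -1.03 without animal 2, which passed (adjusted p = 0.0285). Without placebo animal 3 the difference in placebo foci was -1.11 and passed (adjusted p = 0.0402).

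Both conjugation enzymes fell in all 3 groups. Slc27a5, the bile acyl-CoA synthetase that activates bile acids for conjugation, had intensities of 187, 149 and 119 in rapamycin foci, 64.2, 73.8 and 109 in placebo foci and 104, 78.7 and 59.9 in AAF/PH liver, against 949.8, 687 and 880.5 in normal liver. Every value of the other groups lay below the lowest normal value. The log2 difference was -2.48 ± 0.25 in rapamycin foci, -3.38 in placebo foci and -3.40 in AAF/PH liver, which is 5.57-fold, 10.4-fold and 10.5-fold lower (limma adjusted p = 7.64e-05, 2.61e-06 and 7.74e-07). Without rapamycin animal 3 the difference in rapamycin foci was -2.32 (adjusted p = 8.03e-06). Baat, which joins the activated bile acid to taurine or glycine, had 245, 208 and 87.2 in rapamycin foci, 103, 122 and 162 in placebo foci and 65.6, 34.2 and 31.3 in AAF/PH liver, against 586, 545 and 607 in normal liver. All treated animals lay below all normal animals, and the AAF/PH animals were the lowest. Baat fell, with a log2 difference of -1.82 ± 0.35 in rapamycin foci, -2.19 in placebo foci and -3.81 in AAF/PH liver (limma adjusted p = 0.00806, 0.00113 and 4.77e-06). Baat in rapamycin foci fell by 1.36 without animal 3 (adjusted p = 0.0028).

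The uptake carriers fell in all 3 groups, and Slc10a1 fell most in AAF/PH liver. Slc10a1, the sodium-dependent carrier NTCP that takes conjugated bile acids from portal blood, had intensities of 725, 746 and 288 in rapamycin foci, 330.5, 357 and 472 in placebo foci and 44.8, 51.7 and 25.1 in AAF/PH liver, against 1240.2, 1329 and 1201 in normal liver. The 4 groups were ordered AAF/PH liver below foci below normal liver, and only the rapamycin and placebo foci overlapped, through rapamycin animal 3. The difference of AAF/PH from normal liver was -5.02 ± 0.34 on the log2 scale, 32.4-fold lower (limma adjusted p = 3.47e-07). Placebo foci differed by -1.72 (adjusted p = 0.00483). In rapamycin foci Slc10a1 fell by 1.22 (adjusted p = 0.0433), and without animal 3 the difference of -0.77 no longer passed (adjusted p = 0.0704). That call was also lost without any single normal animal, with adjusted p of 0.0888 to 0.156.

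Slco1b2, the sodium-independent carrier that takes up bile acids and other organic anions, had intensities of 365, 433 and 174 in rapamycin foci, 188, 262 and 255 in placebo foci and 211, 162 and 101 in AAF/PH liver, against 1169, 1257 and 978 in normal liver. The normal animals lay far above the rest, while the other groups overlapped each other. The log2 difference of Slco1b2 was -1.90 ± 0.32 in rapamycin foci, -2.28 in placebo foci and -2.90 in AAF/PH liver (limma adjusted p = 0.00373, 0.000446 and 2.6e-05). Slco1b2 in rapamycin foci lay at -1.51 when animal 3 was left out (adjusted p = 0.000805). Abcb11, the bile salt export pump of the canalicular membrane, had 316, 357 and 129 in rapamycin foci, 253, 194 and 279 in placebo foci and 132, 112 and 164 in AAF/PH liver, against 558, 514 and 586 in normal liver. No treated animal reached the normal range. Abcb11 had log2 differences of -1.18 ± 0.31 in rapamycin foci, -1.21 in placebo foci and -2.04 in AAF/PH liver (limma adjusted p = 0.035, 0.0236 and 0.000321). The call in rapamycin foci was lost without any single normal animal (adjusted p of 0.061 to 0.139), and the difference was -0.72 without rapamycin animal 3 (adjusted p = 0.0355). The call in placebo foci was lost without placebo animal 1 or 2 or normal animal 1 or 3, with adjusted p of 0.0729 to 0.115.

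The receptor Nr1h4 fell in all 3 groups, while Nr0b2 rose in rapamycin foci and fell in AAF/PH liver. Nr1h4, the bile acid receptor FXR, had intensities of 91.7, 73.2 and 50.1 in rapamycin foci, 44.8, 55.8 and 70.8 in placebo foci and 62.7, 29.2 and 44.9 in AAF/PH liver, against 199.6, 141 and 159 in normal liver. All treated animals lay below the normal ones. Nr1h4 had log2 differences of -1.24 ± 0.29 in rapamycin foci, -1.55 in placebo foci and -1.92 in AAF/PH liver (limma adjusted p = 0.02, 0.00346 and 0.000302). The call in rapamycin foci was lost without normal animal 1 (adjusted p = 0.122) or 3 (adjusted p = 0.0766), and the difference was -1.01 without rapamycin animal 3 (adjusted p = 0.0271).

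Nr0b2, the corepressor SHP and a known FXR target, had intensities of 169, 249.7 and 74.2 in rapamycin foci and 169, 90.8 and 90.6 in placebo foci. It had 12.1, 20.1 and 22.6 in AAF/PH liver, against 43.7, 64.1 and 41.7 in normal liver. Every animal with foci lay above every normal animal, and every AAF/PH animal lay below. Nr0b2 rose by 1.58 ± 0.39 on the log2 scale in rapamycin foci, 2.99-fold (limma adjusted p = 0.0273), and the difference was 2.07 without animal 3 (adjusted p = 0.000211). The difference of 1.19 in placebo foci did not pass (adjusted p = 0.0805). It passed when only the 2 groups were fitted (adjusted p = 0.00228), with quantile normalization (adjusted p = 0.0417) and with array quality weights (adjusted p = 5.19e-05). In AAF/PH liver Nr0b2 fell by 1.47 (adjusted p = 0.0155). The AAF/PH values lay below the medians of their own arrays, so the probe set was dim there and the size of differences from this group is uncertain. The call in AAF/PH liver was lost without AAF/PH animal 1 (adjusted p = 0.0777) or normal animal 2 (adjusted p = 0.0593). With a pseudocount of 16 the difference there was -0.94 and did not pass (adjusted p = 0.092). The rise in rapamycin foci was lost without normal animal 1 (adjusted p = 0.131), normal animal 3 (adjusted p = 0.124) or rapamycin animal 1 (adjusted p = 0.0631). That rise was also lost when only the 2 groups were fitted (adjusted p = 0.0997) and with median centring (adjusted p = 0.0746). A pseudocount of 16 (adjusted p = 0.0571), only the first array of animal 3 (adjusted p = 0.055) and testing all probe sets (adjusted p = 0.0534) ended it too.

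**Figure D2:**
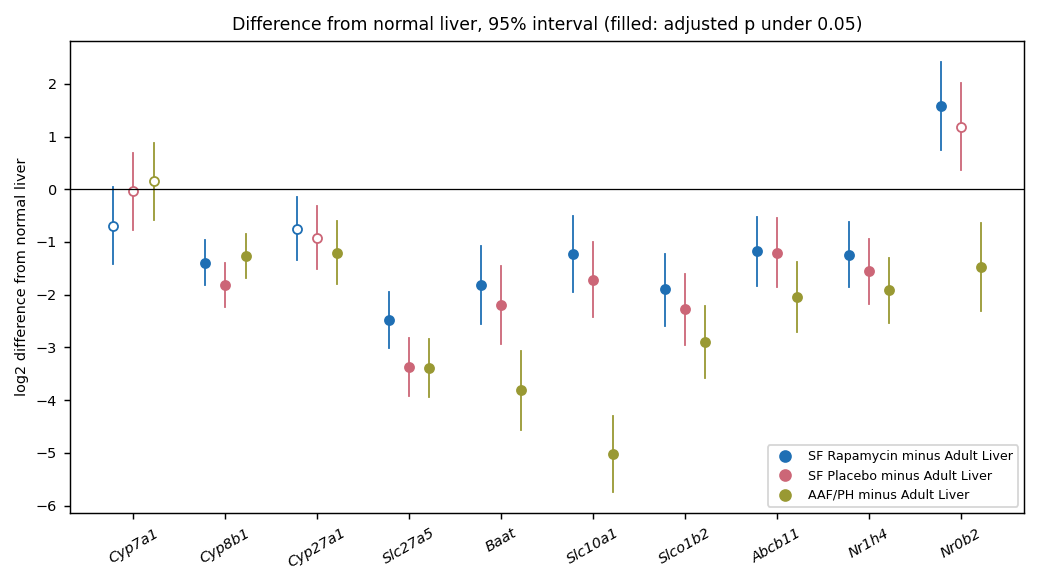
Log2 difference from normal liver of the 10 genes in rapamycin foci, placebo foci and AAF/PH liver (points, with 95% intervals of the limma fit; filled where the adjusted p was under 0.05). Nr0b2 lay at 1.58 and 1.19 in the foci and at -1.47 in AAF/PH liver, and Slc10a1 at -5.02 in AAF/PH liver was the lowest point.

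The comparison of rapamycin with placebo foci asks whether rapamycin, an inhibitor of the growth kinase mTOR, left a difference in these genes after its release had ended. None of the 10 genes passed the limma test, and neither did any other gene: 0% of the 14497 genes were called, while 483 genes and 2 of the 10 had an unadjusted p under 0.05. By value, 9 of the 10 lay higher in rapamycin foci, where 52.1% of all genes did. The median log2 difference was 0.38 over the 10 genes and 0.01 over all genes. The groups did not overlap in 1 of the 10, against 6.04% of all genes. That gene was Slc27a5, at 187, 149 and 119 in rapamycin foci and 64.2, 73.8 and 109 in placebo foci. Its log2 difference was 0.90 ± 0.25, with a 95% interval of 0.35 to 1.44 (unadjusted p = 0.00321, limma adjusted p = 0.985). Cyp8b1 differed by 0.44, with an interval of 0.02 to 0.86 (unadjusted p = 0.0429, limma adjusted p = 0.985). The intervals of the other genes included 0 and were wide.

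Slc10a1 differed by 0.49 with an interval of -0.22 to 1.21, Nr0b2 by 0.39 with an interval of -0.44 to 1.22, and Baat by 0.38 with an interval of -0.37 to 1.12. For Slco1b2 the interval was -0.31 to 1.06 and for Nr1h4 -0.31 to 0.92. Abcb11, at 0.03 with an interval of -0.63 to 0.69, and Cyp27a1, at 0.17 with an interval of -0.43 to 0.77, differed by 0.49 and 0.56 without rapamycin animal 3. Cyp7a1 was the 1 gene with the lower value in rapamycin foci, at -0.64 with an interval of -1.37 to 0.09. Differences within these intervals are not excluded by 3 animals a group. When rapamycin animal 3 was left out, 9 genes again lay higher by value and Cyp7a1 lower, at -0.37, with Slc27a5 at 1.06 (limma adjusted p = 0.16) and Slc10a1 at 0.94 (adjusted p = 0.241). Then 3 of all genes (0.0207%) and 0 of the 10 were called. The share of all genes lying higher by value was not counted in this setting. Over 48 other genes of the pathway, described below, the median log2 difference was 0.27 without animal 3 and 0.01 with it.

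**Figure D3:**
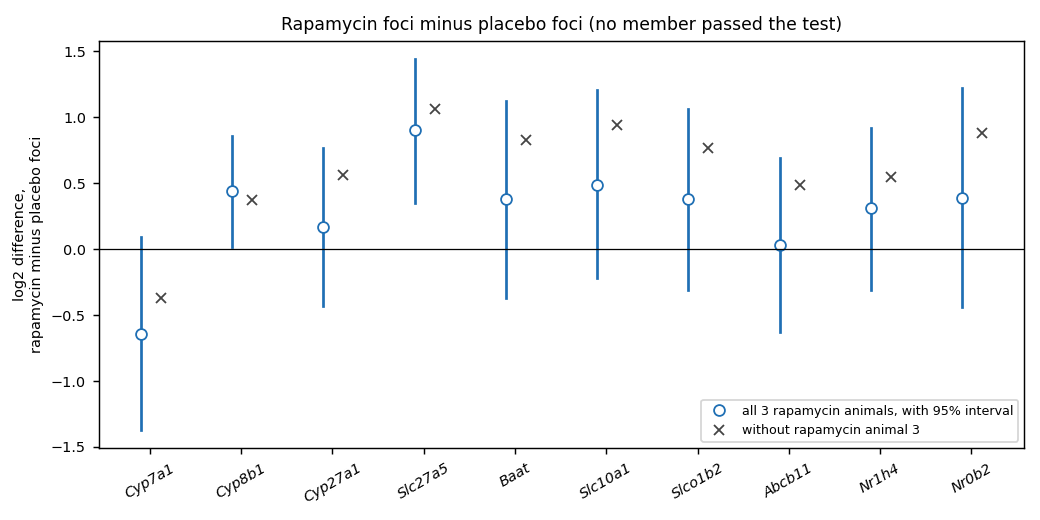
Log2 difference of rapamycin minus placebo foci for the 10 genes (circles, with 95% intervals of the limma fit) and the same difference without rapamycin animal 3 (crosses). Slc27a5 lay at 0.90 and at 1.06 without animal 3, and Cyp7a1 lay below 0 both ways.

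Set against AAF/PH liver, both kinds of foci had higher Slc10a1, Baat and Nr0b2. In rapamycin foci 3 of the 10 genes were called higher and 0 lower, where 2.14% of all genes were called higher and 1.87% lower. In placebo foci 3 were called higher and 0 lower, where 2.62% of all genes were called higher and 1.57% lower. Slc10a1 had a geometric mean of 538 in rapamycin foci and 382 in placebo foci, against 38.7 in AAF/PH liver, with log2 SDs of 0.78, 0.27 and 0.55 (n = 3 each). That is 3.80 ± 0.34 higher on the log2 scale in rapamycin foci (limma adjusted p = 1.76e-05) and 3.30 higher in placebo foci (adjusted p = 4.82e-05). Nr0b2 was 3.05 ± 0.39 higher in rapamycin foci and 2.66 higher in placebo foci (limma adjusted p = 0.000297 and 0.000934), with the limit that its probe set was dim in AAF/PH liver. Baat was 1.99 ± 0.35 higher in rapamycin foci and 1.62 higher in placebo foci (limma adjusted p = 0.00364 and 0.0152). The call for Baat in placebo foci was lost without placebo animal 2 or 3 or AAF/PH animal 2 or 3, with adjusted p of 0.0515 to 0.0894. A pseudocount of 16 ended it too (adjusted p = 0.0586). The call for Baat in rapamycin foci was lost when only the 2 groups were fitted (adjusted p = 0.054).

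Slc27a5 passed in neither comparison with AAF/PH liver, at 0.92 in rapamycin foci (limma adjusted p = 0.0606) and 0.02 in placebo foci (adjusted p = 0.983). Without rapamycin animal 3, 8 of the 10 genes were called higher in rapamycin foci than in AAF/PH liver. There 14.2% of all genes were called in either direction, 1507 higher and 551 lower. The 2 others were Cyp7a1 and Cyp8b1. The median log2 difference over the 10 genes was 0.89 in rapamycin foci and 0.49 in placebo foci, against -0.01 and -0.05 over all genes. Both comparisons share the AAF/PH animals.

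The cell type markers moved beside these results. Of the 10 hepatocyte markers, 1 fell in rapamycin foci, 5 in placebo foci and 7 in AAF/PH liver, and their mean log2 difference from normal liver was -0.35, -0.54 and -0.87. Of the 9 markers of cholangiocytes and oval cells, 2 rose in rapamycin foci, 4 in placebo foci and 7 in AAF/PH liver. Of 10 markers of stellate cells and fibroblasts, 0 rose in rapamycin foci, 1 in placebo foci and 6 in AAF/PH liver. Their summed intensity was 589 to 836 in rapamycin foci, 786 to 1100 in placebo foci and 1768 to 4741 in AAF/PH liver, against 658 to 910 in normal liver. Of 10 macrophage markers, 3 fell in rapamycin foci, 1 in placebo foci and 1 in AAF/PH liver, where 2 rose. Of 4 measured erythroid markers, 2 fell in rapamycin foci, 2 in placebo foci and 3 in AAF/PH liver, and their summed intensity was 471 to 600 in rapamycin foci, 501 to 578 in placebo foci and 394 to 477 in AAF/PH liver, against 1008 to 1553 in normal liver. Of 7 endothelial markers 1 fell in each group. Of 9 lymphocyte markers 1 rose in rapamycin foci, 0 in placebo foci and 2 in AAF/PH liver. The part of these other cell types in the results was not tested. When each animal's values were taken relative to the mean of the hepatocyte markers, a setting added after the data were seen, 6 fell and 1 rose in rapamycin foci (2.54% and 6.28% of all genes), 7 fell and 1 rose in placebo foci (2.74% and 36.9%), and 6 fell and 1 rose in AAF/PH liver (4.44% and 76.1%).

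On this relative scale Slc10a1 in AAF/PH liver was lower by a log2 difference of -4.15, Baat by -2.94, Slc27a5 by -2.53 and Slco1b2 by -2.03, all with limma adjusted p of 1.6e-05 or below. In AAF/PH liver Cyp8b1 at -0.40, Cyp27a1 at -0.32 and Nr0b2 at -0.60 no longer passed. Cyp7a1 there was called higher at 1.02 (limma adjusted p = 0.00708), where 76.1% of all genes were called higher. Before centring Cyp7a1 differed by 0.15 in AAF/PH liver, and the marker mean by -0.87. Nr0b2 was called higher in placebo foci at 1.73 (limma adjusted p = 0.00255), where 36.9% of all genes were called higher. It was called higher in rapamycin foci at 1.93 (adjusted p = 0.0028), where 6.28% were. Slc10a1 in rapamycin foci, at -0.87, did not pass (adjusted p = 0.0509). Against AAF/PH liver on this scale, 3 of the 10 genes were higher in each kind of foci, again Slc10a1, Baat and Nr0b2, where 1.76% of all genes were called higher in rapamycin foci and 2.12% in placebo foci. Cyp7a1 was called lower in rapamycin foci at -1.36 (limma adjusted p = 0.0064), where 29.1% of all genes were called lower. Cyp8b1 was called lower in placebo foci at -0.88 (limma adjusted p = 0.0374), where 5.28% were.

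Other genes of the pathway were taken from 8 lists, with 53 genes beside the 10, of which 48 were measured. The other 5 were not used here. Against normal liver, 12 of the 48 fell and 3 rose in rapamycin foci, where 4.93% of all genes fell and 1.6% rose. In placebo foci 14 of the 48 fell and 3 rose, where 5.38% of all genes fell and 2.84% rose. In AAF/PH liver 25 of the 48 fell and 3 rose, where 12.5% of all genes fell and 7.54% rose. The median log2 differences over the 48 were -0.51, -0.56 and -0.89. Between rapamycin and placebo foci 0 of the 48 passed, with a median of 0.01, or of 0.27 without rapamycin animal 3. Without rapamycin animal 3 the median in rapamycin foci against normal liver was -0.20. Then 10 of the 48 fell and 3 rose, where 6.68% of all genes were called in either direction. All 13 were also called with animal 3 included, and Abcd3 and Rxra no longer passed without it (limma adjusted p = 0.0679 and 0.095).

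Beside Cyp7a1, Cyp8b1 and Cyp27a1, 7 other enzymes that modify the sterol were measured. Ch25h among them lay at 7.73, 7.81 and 7.66 in normal liver, below the medians of those arrays, so a fall could hardly show. Of the 7, 0 fell in either kind of foci and 3 fell in AAF/PH liver. These were Cyp39a1, an oxysterol hydroxylase, at -2.38, Akr1d1, the steroid reductase that saturates the ring, at -1.16, and Hsd3b7, the sterol dehydrogenase of an early step, at -0.92 on the log2 scale (limma adjusted p = 0.000377, 0.0401 and 0.0134). Of 8 peroxisomal side-chain genes, 5 fell in rapamycin foci, 5 in placebo foci and 6 in AAF/PH liver. Amacr, the racemase that prepares the side chain for oxidation, had intensities of 131, 108 and 95.2 in rapamycin foci, 74.9, 109.7 and 102 in placebo foci and 83.3, 55.1 and 29 in AAF/PH liver, against 378, 455 and 396 in normal liver. All treated animals lay below all normal ones, and Amacr had log2 differences of -1.89 in rapamycin foci, -2.11 in placebo foci and -3.00 in AAF/PH liver (limma adjusted p = 0.00252, 0.000485 and 9.62e-06). Acox2, the oxidase that follows it, had log2 differences of -1.27 in rapamycin foci, -1.61 in placebo foci and -1.98 in AAF/PH liver (limma adjusted p = 0.00747, 0.000715 and 5.41e-05). Scp2, the thiolase of the last step, and Slc27a2 fell in all 3 groups as well.

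Of 3 sulfotransferases measured, 1 fell in rapamycin foci, 2 in placebo foci and 3 in AAF/PH liver. Sult2a1 had intensities of 109, 83.1 and 56.6 in rapamycin foci, 11.1, 60.3 and 41.2 in placebo foci and 5.67, 13.2 and 8.28 in AAF/PH liver, against 358, 319 and 349.8 in normal liver. Its log2 difference was -2.10 in rapamycin foci, -3.50 in placebo foci and -5.32 in AAF/PH liver (limma adjusted p = 0.0189, 0.000363 and 4.13e-06). The values in AAF/PH liver and in placebo animal 1 lay below the array medians, so the size of these differences is uncertain. Sulfotransferase genes of this family are near copies of each other, so a probe set may not tell them apart.

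Of 4 further genes listed under sinusoidal uptake, the 3 carriers fell in every group and 1 enzyme, Ephx1, rose. Slco1a4, another organic anion carrier, had intensities of 91.8, 83.5 and 44.3 in rapamycin foci, 57.9, 55.3 and 69.6 in placebo foci and 34.5, 26.5 and 24.4 in AAF/PH liver, against 329, 473 and 286 in normal liver. Its log2 difference was -2.34 in rapamycin foci, -2.55 in placebo foci and -3.65 in AAF/PH liver (limma adjusted p = 0.000227, 4.63e-05 and 6.8e-07). Slco2b1 and Slc22a7, organic anion carriers too, fell in all 3 groups. Ephx1, an epoxide hydrolase that detoxifies xenobiotics, rose by 1.29 in rapamycin foci, 1.69 in placebo foci and 1.17 in AAF/PH liver (limma adjusted p = 0.028, 0.00414 and 0.0189).

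Basolateral exporters send bile acids and their conjugates back to blood. Of 3 measured, 2 rose in rapamycin foci, 2 in placebo foci and 1 in AAF/PH liver. Abcc3 had intensities of 349, 451 and 148 in rapamycin foci, 436, 398 and 476 in placebo foci and 75.2, 82.5 and 96 in AAF/PH liver, against 27.4, 38.1 and 32.8 in normal liver. Every treated animal lay above every normal animal, and Abcc3 rose by 3.14 ± 0.31 in rapamycin foci, 3.75 in placebo foci and 1.37 in AAF/PH liver on the log2 scale (limma adjusted p = 5.66e-05, 5.66e-06 and 0.00623). Abcc4 had 210.4, 231 and 171 in rapamycin foci, 338, 378 and 316 in placebo foci and 112, 141 and 134 in AAF/PH liver, against 107, 118 and 121 in normal liver. It rose by 0.82 in rapamycin foci and 1.57 in placebo foci (limma adjusted p = 0.013 and 5.65e-05), and did not pass in AAF/PH liver at 0.15 (adjusted p = 0.536). The remaining gene, Slc51a, was called in no group. Abcc3 and Abcc4 were also higher in foci than in AAF/PH liver, Abcc3 by 1.76 and Abcc4 by 0.66 in rapamycin foci and by 2.37 and 1.42 in placebo foci (limma adjusted p = 0.00374, 0.0447, 0.000395 and 0.000196). In all, 7 of the 48 genes were called higher in rapamycin foci than in AAF/PH liver and 0 lower, against 2.14% and 1.87% of all genes. In placebo foci 6 were called higher and 0 lower, against 2.62% and 1.57% of all genes. Leaving out rapamycin animal 3 raised the number in rapamycin foci to 24 higher, where 14.2% of all genes were called in either direction. Among the 24 were Abcc2 at 1.62, Abcb4 at 1.55 and Hnf4a at 1.12 (limma adjusted p = 2.67e-05, 0.000357 and 0.00074).

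Of 7 canalicular exporters beside Abcb11, 0 were called in either direction in rapamycin foci or placebo foci and 3 fell in AAF/PH liver. Abcg2 lay below the array medians in every animal, and Abcg8 and Atp8b1 lay near them, so a fall in these could hardly show. Abcc2, which exports conjugated organic anions, had intensities of 717, 1074 and 309 in rapamycin foci, 1217, 964 and 1009 in placebo foci and 363, 238 and 272 in AAF/PH liver, against 736, 762 and 813 in normal liver. In AAF/PH liver the log2 difference was -1.43 for Abcc2, -1.55 for Abcb4, the phospholipid transporter, and -1.08 for Abcg5, a subunit of the sterol transporter (limma adjusted p = 0.00758, 0.00429 and 0.00125). The Abcg5 values in AAF/PH liver lay below the medians of their arrays, so the size of its difference is uncertain. Of 11 further receptors and regulators, 2 fell in rapamycin foci, 3 in placebo foci and 6 in AAF/PH liver. Rxra, the partner receptor of FXR, had intensities of 411, 371 and 227 in rapamycin foci, 233, 255 and 329 in placebo foci and 255, 210.4 and 274 in AAF/PH liver, against 585, 542 and 589 in normal liver. Rxra had log2 differences of -0.81 in rapamycin foci, -1.09 in placebo foci and -1.22 in AAF/PH liver (limma adjusted p = 0.0437, 0.00659 and 0.0014). Fgfr4, the receptor of the gut hormone that represses Cyp7a1, had log2 differences of -0.99 in rapamycin foci, -1.11 in placebo foci and -0.66 in AAF/PH liver (limma adjusted p = 0.00594, 0.00135 and 0.0179). In AAF/PH liver the log2 difference was -1.29 for Hnf4a, a central factor of hepatocyte genes, and -1.30 for Nr5a2, a receptor that acts on Cyp7a1 and Cyp8b1 (limma adjusted p = 0.0023 and 0.0074). In rapamycin and placebo foci Hnf4a differed by -0.47 and -0.66 and did not pass (adjusted p = 0.233 and 0.139). Of 5 bile duct transport genes, 1 fell and 0 rose in each kind of foci, and 1 fell and 1 rose in AAF/PH liver. The median log2 difference over the 5 was 0.23 in rapamycin foci, -0.01 in placebo foci and 0.47 in AAF/PH liver. Cftr and Fabp6 among the 5 lay below the array medians in every animal, so these counts and medians rest in part on dim probe sets. Slc10a2, the bile acid carrier of ileum and bile duct, was the gene that fell in all 3 groups. It had intensities of 9.13 to 15.6 in rapamycin foci and 9.58 to 10.7 in placebo foci. AAF/PH liver had 9.36 to 12, against 26.3 to 31.9 in normal liver. Its log2 differences were -1.36 in rapamycin foci, -1.57 in placebo foci and -1.50 in AAF/PH liver (limma adjusted p = 0.00157, 0.000211 and 0.000121). Its values in the treated groups lay below the array medians given above, so the probe set was dim there.

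**Figure D4:**
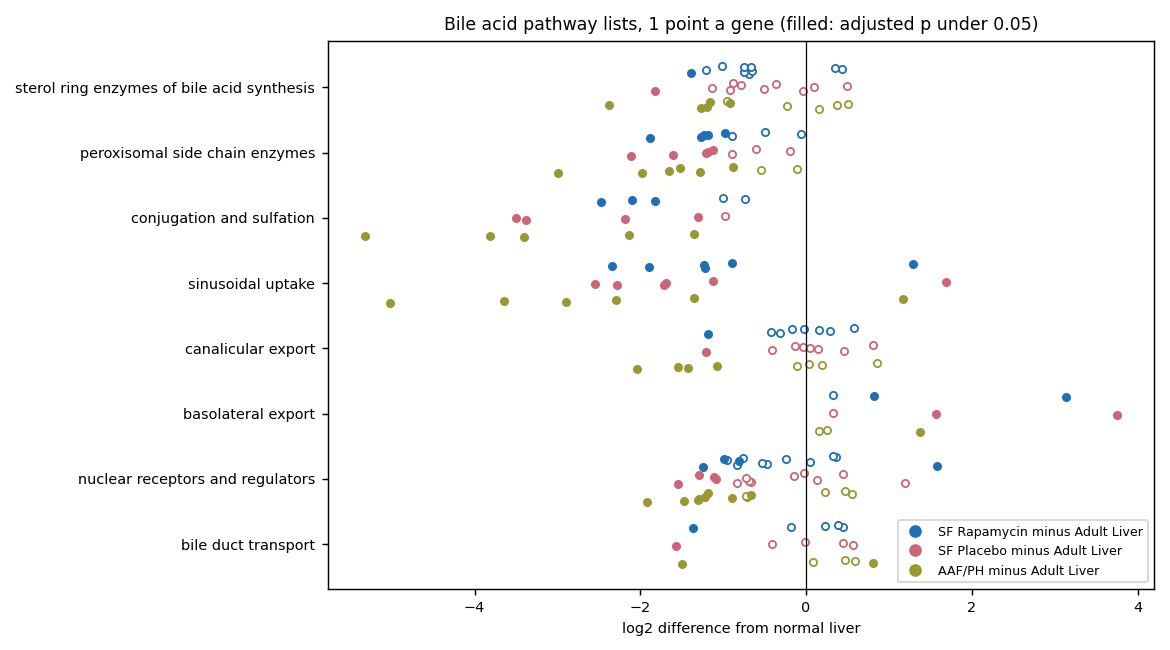
Log2 difference from normal liver of every measured gene of 8 bile acid lists, the 10 genes included, in rapamycin foci, placebo foci and AAF/PH liver (1 point a gene; filled where the limma adjusted p was under 0.05). Uptake and conjugation genes lie mostly left of 0, and Abcc3 at 3.14 and 3.75 is the farthest to the right.

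The genes whose profiles were most like the 10 were sought over the 12 animals by Pearson correlation, given as a description, since the animals share their 4 groups and arrays. The mean standardised profile of the 10 was most like Grhpr, Dpys, Ndufv3 and Cyp4f1 (r = 0.992 for each) and Kyat3 (r = 0.989). Slc10a1 was most like Slco2a1, a prostaglandin carrier (r = 0.994), Baat like Kynu, an enzyme of tryptophan breakdown (r = 0.995), and Abcb11 like Pdia4 (r = 0.991). Slco1b2 was most like Apoc4 (r = 0.987), Cyp27a1 like Ndufa4 (r = 0.987), Slc27a5 like Vtn (r = 0.984), Nr1h4 like Mccc1 (r = 0.979) and Cyp8b1 like Slc29a1 (r = 0.965). The gene most like Nr0b2 was Gjb2, a gap junction protein of hepatocytes (r = 0.923), with 525, 478 and 171 in rapamycin foci, 385, 319.9 and 432 in placebo foci and 43.1, 69.3 and 37 in AAF/PH liver, against 204, 214 and 205 in normal liver. Cyp7a1 had the weakest best match, the olfactory receptor Olr990 (r = 0.853). The Olr990 intensities of 4.04 to 7.9 lay below the median of every array, so its profile is that of a dim probe set.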

How the data were processed

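Transcript levels were measured on Affymetrix Rat Gene ST 1.0 arrays from laser-captured, formalin-fixed liver. The deposited table holds the authors' intensity values on a linear scale for 28826 probe sets on 14 arrays. Per the submitters' processing notes, Partek 6.6 and RMA are named, with no role or order given. The values were linear, so each was turned into log2 without adding a pseudocount. Rapamycin animal 3 entered as the mean log2 of its 3 arrays. Symbols came from the platform annotation: 15209 probe sets had 1 symbol, 306 several and 13311 none listed. For 494 genes with several probe sets the one of highest mean was kept. One limma fit (limma 3.58.1 in R 4.3.3, with the data.table package in version 1.17.8; lmFit and eBayes, 2-sided) held 12 animals in 4 groups, with 8 residual and 6.38 prior degrees of freedom. It gave 6 contrasts, with p-values adjusted by Benjamini-Hochberg over 14497 genes and called under 0.05. The fit was also run on simulated data, with independent normal noise for each gene and no array-wide differences. That run does not cover arrays of narrower spread, like those of rapamycin animal 3. Depth does not apply to arrays, and the number of animals limits the precision.

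The members and gene lists were chosen with earlier results of these data known. The text names every member, and may name any listed pathway gene that was called, the closest genes by correlation and markers where they stand beside a result. The plan had also called for protein sequences, which are not used here. Promoters of GRCr8 come from RefSeq and not from the F344 animals. Alternatives tried were other scaling, weights, pseudocounts, filters, probe sets, groups fitted, arrays of animal 3, the replicate block and leaving out each animal, plus hepatocyte-marker centring, added after the data were seen. A motif search that was planned is not reported here.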

Additional observations from a re-analysis of the deposited data

How the results depend on the processing

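Over all alternatives run, 1097 values of single genes kept their direction and side of the threshold, 49 lost a call, 28 gained one and 26 changed sign. The sign changes were all in small differences, of Cyp7a1 and Slc27a5, or of Abcb11 and Cyp27a1 between foci groups or against AAF/PH liver. Median centring gave Cyp7a1 in AAF/PH against normal liver -0.04 and Abcb11 in rapamycin against placebo foci -0.03, which was -0.05 with the first array of animal 3. Quantile normalization gave Cyp7a1 in placebo foci against normal liver 0.10, and Slc27a5 in placebo foci against AAF/PH liver -0.09, which was -0.22 with array quality weights, whose estimation stopped before converging. Relative to hepatocyte markers, Slc27a5 in placebo foci against AAF/PH liver was -0.31, Cyp27a1 there -0.06 and in rapamycin foci against AAF/PH liver -0.08, Cyp7a1 in placebo foci against normal liver 0.50, and in rapamycin against placebo foci Abcb11 was -0.16 and Cyp27a1 -0.02. Leaving out 1 animal moved Cyp7a1 between -0.08 and 0.56 in AAF/PH against normal liver, -0.60 and 0.03 in placebo foci against AAF/PH liver, and -0.28 and 0.11 in placebo foci against normal liver. Slc27a5 in placebo foci against AAF/PH liver lay between -0.20 and 0.22, and in rapamycin against placebo foci Abcb11 lay between -0.24 and 0.49 and Cyp27a1 between -0.10 and 0.56. The cause was not tested.

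Of the 10 genes, 8 were called in rapamycin foci against normal liver. The number was 5 with all probe sets tested, with a pseudocount of 16 or with only the first array of animal 3, 4 with only the 2 groups fitted, and 4 to 9 when 1 animal was left out, the lowest without normal animal 1 or 3. Against AAF/PH liver, 3 were called in rapamycin foci, 6 with array quality weights, 5 with quantile normalization and 3 to 8 when 1 animal was left out. In placebo foci against AAF/PH liver, 5 were called with array quality weights in place of 3. Animals of different groups share only a number: deviations from group means correlated at -0.68 to 0.38 over 18 same-number pairs, 7 of them over 0.1, and 1 of 12 animals correlated best with its own number. With the numbers as a replicate block, 6 genes were called in rapamycin foci, 6 in placebo foci and 9 in AAF/PH liver against normal liver, and 947 calls over all genes became 555 in rapamycin foci. The block ended the calls of Slc10a1 and Abcb11 in rapamycin foci (adjusted p = 0.0539 and 0.0725) and of Abcb11 in placebo foci (0.0519).

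Counts over all genes moved by more than 1.5 times. AAF/PH against normal liver had 2900 calls, 7996 with array quality weights, 5115 with 2 groups, 11671 relative to hepatocyte markers and as few as 1552 without normal animal 1. Placebo foci had 1192, 6443, 2297 and 5747 under the same settings and as few as 606 without normal animal 1. Rapamycin foci had 947, 210 with 2 groups, 224 without normal animal 1, 284 without normal animal 3 and 2051 without rapamycin animal 2. Against AAF/PH liver, rapamycin foci had 581, 1264 with weights, 375 with median centring, 204 with 2 groups, 1161 with quantile normalization, 4477 relative to hepatocyte markers and 297 to 2058 with 1 animal left out. Placebo foci had 608 there, 2011, 399, 1334, 1040 and 1072 under the same settings and 330 to 369 with any 1 of 5 animals left out. Rapamycin against placebo foci had 0, 1 with weights, and 2 or 3 without placebo animal 3 or rapamycin animal 3.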
